A study of Homo sapiens with 12 samples.

Results

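The genes described here are the splicing factors and heterogeneous nuclear ribonucleoproteins (hnRNPs) of 2 Ewing sarcoma cell lines and of the derivative of each that resists YK-4-279. They were picked by a rule on gene symbols, set with earlier results of these data known. The rule took every symbol of the SRSF, TRA2, HNRNP, SF3A, SF3B, U2AF, SNRP, SNRNP and PRPF series with its member letters or number. The rule found 82 genes among 56609 symbols, on 22 chromosomes, and 124 pseudogenes with matching names were left out. The fusion protein EWS-FLI1 drives Ewing sarcoma, a cancer of bone and soft tissue, and YK-4-279 was made as a small-molecule inhibitor of it. RNA was sequenced in 12 libraries. A4573 parental and TC-71 parental (3 libraries each) received the solvent DMSO. A4573-R (3 libraries) received YK-4-279 at a labelled dose of 650 uM, and TC-71-R (3 libraries) at 400 uM. The unit of these doses is in doubt because they are very high for this compound. Resistance and exposure go together in each derivative, so they cannot be told apart, and the labels do not say whether a derivative is a clone or a pool. Separate cultures are not named for the 3 libraries of any group, so p-values measure only the spread between these libraries, which may be technical.

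Most human genes are copied into RNA with introns that the spliceosome removes. Its small nuclear ribonucleoproteins (snRNPs) recognise the intron: U1 binds the 5′ splice site, U2 with the help of U2AF binds the branch site and 3′ splice site, and the U4/U6 and U5 particles then join for catalysis, while a ring of Sm proteins forms the core of most of these particles. A rarer set of introns is removed by the minor spliceosome. Which exons are kept depends in part on SR proteins, which mostly favour exon inclusion when bound to exons, and on hnRNPs, which often oppose it. The 82 genes were therefore grouped by role into 14 SR proteins (the 12 SRSF genes with TRA2A and TRA2B), 25 hnRNPs, 8 Sm core genes, 6 genes of U1, 13 of U2 and U2AF, 8 of U4/U6 and U5, 3 of the minor spliceosome and 5 other PRPF factors.

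Libraries held 44.0 to 62.1 M reads on named genes (M, 1000000), and 47 to 131706 reads per tested member and library. Values are CPM (counts per 1000000 reads, scaled by the authors). Of 12 Ewing sarcoma markers, 11 averaged at least 1 CPM in each group, and CD99 was below 1 CPM in all groups and at 0 in TC-71-R. Whether reads of CD99 were lost in counting was not tested. Immune, epithelial and endothelial marker lists summed to 0.0148 to 3.08 CPM per library, while 4 of 4 fibroblast markers were present, at a sum of 95.9 to 379 CPM. Mitochondrially encoded genes took 2.78% of named reads in A4573 parental and 2.58% in its derivative, and 6.95% in TC-71 parental and 6.48% in its derivative. The part of these differences in the results was not tested.

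RefSeq (GRCh38.p14) listed a start site for 71 of the 82 genes, and the 250 bases before it were searched on both strands for CCGGAA, the core that ETS factors such as FLI1 bind, for GGAAGGAA, a short form of the GGAA repeat that EWS-FLI1 is known to bind, for CCAAT and for CACGTG (E-box). CCGGAA was present in 27 members (38.0%) against 14.8% of 27305 promoters, and the CCAAT box in 45.1% against 33.0%. The 27305 promoters include genes that were not tested here, so these shares do not compare members with expressed genes only. CACGTG was found in 11.3% against 6.49%. The GGAAGGAA form, which can overlap the core in the letters GGAA, was found in 2.82% against 2.99%. The median GC content of the same windows was 61.6% in members and 58.0% in all promoters. By class, CCGGAA stood in 9 of 12 promoters of U2 and U2AF genes, 4 of 7 of the Sm core, 4 of 7 of U4/U6 and U5, 5 of 23 of hnRNPs and 2 of 12 of SR proteins. CCAAT stood in 15 of the 23 hnRNP promoters and 2 of the 12 of U2 and U2AF. A match describes letters, not a bound site. The stretches printed here are the parts of these windows outside every exon annotated in GENCODE release 29, and show the U2 pattern in SF3B6 (chr2:24076444-24076525, minus strand), SNRPB2 (chr20:16729881-16729960, plus strand) and SNRPA1 (chr15:101295283-101295418, minus strand). They are followed by HNRNPF (chr10:43408883-43409089, minus strand), which carries both motifs, and by SRSF6 (chr20:43457646-43457895, plus strand), which carries neither. Each is written 5′ to 3′ on the gene's strand, from GRCh38.p14, with CCGGAA or CCAAT on either strand in capitals.
SF3B6: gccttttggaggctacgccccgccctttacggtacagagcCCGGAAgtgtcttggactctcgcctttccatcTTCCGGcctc
SNRPB2: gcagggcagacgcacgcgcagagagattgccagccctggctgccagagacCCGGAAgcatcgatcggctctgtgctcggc
SNRPA1: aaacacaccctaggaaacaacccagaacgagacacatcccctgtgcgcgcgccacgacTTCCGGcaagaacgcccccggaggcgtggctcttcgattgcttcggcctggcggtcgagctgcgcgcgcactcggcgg
HNRNPF: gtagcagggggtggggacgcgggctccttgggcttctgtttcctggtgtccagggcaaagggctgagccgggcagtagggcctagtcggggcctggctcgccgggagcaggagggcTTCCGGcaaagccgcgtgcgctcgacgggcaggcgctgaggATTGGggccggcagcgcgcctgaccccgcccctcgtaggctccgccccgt
SRSF6: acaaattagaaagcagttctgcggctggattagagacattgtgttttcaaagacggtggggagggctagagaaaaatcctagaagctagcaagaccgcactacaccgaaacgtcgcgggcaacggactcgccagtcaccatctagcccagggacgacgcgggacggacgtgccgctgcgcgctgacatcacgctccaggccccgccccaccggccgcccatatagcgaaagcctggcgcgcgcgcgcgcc

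Members with and without the motif were found among those that rose and those that fell. Of the members with a listed promoter, CCGGAA stood in 9 of 14 that rose and 12 of 34 that fell in A4573-R, and in 19 of 41 that rose and 5 of 16 that fell in TC-71-R. No test was made of these shares. The 27 tested members with CCGGAA had a median log2 fold change of -0.02 in A4573-R and 0.19 in TC-71-R, and the 41 without it of -0.12 and 0.17. The members shown above also moved differently from each other: SF3B6 rose in both derivatives, SNRPA1 fell in both, and SNRPB2 and HNRNPF fell in A4573-R and rose in TC-71-R.

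Of the 82 genes, 78 reached at least 1 CPM in at least 3 libraries and were tested. The 4 others, HNRNPCL1, HNRNPCL2, HNRNPCL3 and HNRNPCL4, are copies related to HNRNPC and had 0 reads in every library. U2AF1, which encodes the small subunit that reads the end of the intron, was counted at only 0.607 to 1.98 CPM although its partner U2AF2 stood at 128 to 235 CPM. In A4573-R it was below 1 CPM in all 3 libraries, so it entered the test through the other groups. A near-identical copy, U2AF1L5, stood at almost 0 as well, so U2AF1 values are uncertain. U2AF1 is nevertheless counted below among the members lower in A4573-R and higher in TC-71-R.

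Compared per kilobase of exon, over all 12 libraries, the member with the highest level was HNRNPA1, an hnRNP that binds pre-mRNA and shuttles to the cytoplasm, at 225 CPM per kb. SNRPB of the Sm ring followed at 147 CPM per kb, then HNRNPK at 129 and HNRNPAB at 117 CPM per kb. The highest of the other classes were SF3B5 (U2) at 84.6, SRSF1 (SR protein) at 77.5, PRPF19 (a ubiquitin ligase of the spliceosome) at 70.1, SNRPC (U1) at 48.6, SNRNP200 (the U5 helicase) at 47.8 and SNRNP25 (minor spliceosome) at 11.1 CPM per kb.

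In A4573-R most splicing factor transcripts that differed from A4573 parental were lower, whereas in TC-71-R most of those that differed from TC-71 parental were higher. By limma with Benjamini-Hochberg adjustment over 14335 genes and a threshold of 0.05, 14 of the 78 were higher in A4573-R (all genes tested, 38.3%), 41 were lower (all genes, 34.1%) and 23 did not pass. The count of 14 was 9 without A4573-R replicate 3. In TC-71-R, 46 were higher (all genes, 38.8%), 21 were lower (all genes, 39.6%) and 11 did not pass. The median log2 fold change over the members was -0.11 in A4573-R and 0.17 in TC-71-R, against medians over all genes of 0.02 and -0.003. With other scalings, filters and models the member median was -0.13 to -0.08 in A4573-R and 0.11 to 0.22 in TC-71-R. The value of 0.11 came without the scaling factor, where the median over all genes was -0.06. Libraries of the compared groups did not overlap for 55 of the 78 members in A4573-R (all genes tested, 74.6%) and for 69 in TC-71-R (all genes, 81.1%), so separated libraries were common among all genes. Changes were small: the largest rise was 0.92 and the largest fall -0.91 on the log2 scale, both in TC-71-R, and no member changed by 2-fold or more on this scale in either derivative.

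Summed over the 82 genes, transcripts took 2.50% (SD 0.0127, n = 3) of named reads in A4573 parental and 2.27% (SD 0.0444) in its derivative. In TC-71 the share was 1.70% (SD 0.0180) in the parent and 1.95% (SD 0.0308) in the derivative. The hnRNP genes, the class with the largest sum, had the same order of group means. Ranges of the 3 libraries did not overlap between any 2 groups in the member sum of CPM.

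The SR protein genes and the hnRNP genes behaved differently within each line. The 14 SR protein genes summed to 2168, 2232 and 2268 CPM in A4573 parental, 1777, 1647 and 1804 in A4573-R, 1593, 1529 and 1543 in TC-71 parental and 1560, 1581 and 1607 in TC-71-R. Only the A4573 pair was separated. The 25 hnRNP genes summed to 8034, 8227 and 8353 CPM in A4573 parental, 7753, 7548 and 8044 in A4573-R, 5157, 5118 and 5153 in TC-71 parental and 6901, 6683 and 6864 in TC-71-R. Here it was the TC-71 pair that stood far apart, while the CPM ranges of the A4573 pair overlapped. As a share of named reads, the hnRNP genes took 1.27% (SD 0.0112, n = 3) in A4573 parental and 1.20% (SD 0.0193) in A4573-R. In TC-71 they took 0.834% (SD 0.00646) in the parent and 1.05% (SD 0.0240) in the derivative. The overlap was thus seen in scaled CPM, and the mean share was lower in A4573-R. The ratio of the sums within a library, which does not depend on scaling between libraries, was lower in both derivatives. It was 0.271 (SD 0.000913, n = 3) in A4573 parental against 0.224 (SD 0.00552) in A4573-R. In TC-71 it was 0.302 (SD 0.00574) in the parent against 0.232 (SD 0.00553) in its derivative. In neither line did the ratios of the compared libraries overlap. Sums weight the abundant genes, and no test was made on them.

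**Figure D1:**
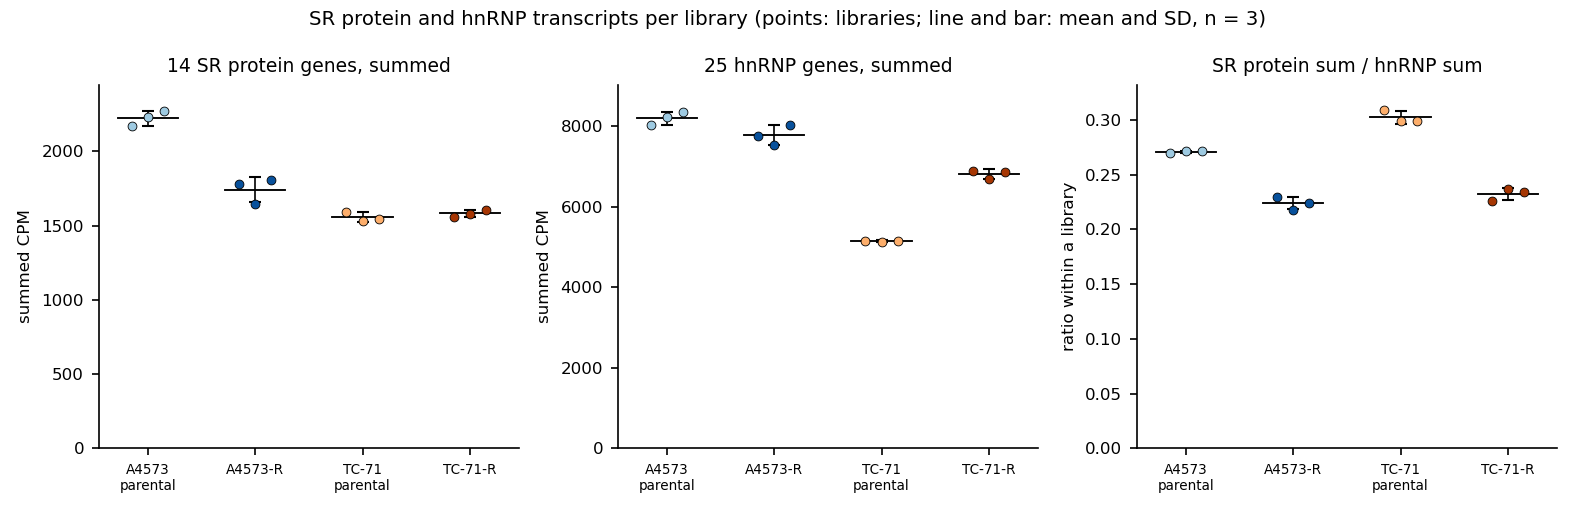
Summed CPM of the 14 SR protein genes, summed CPM of the 25 hnRNP genes and the ratio of the sums, for each of the 12 libraries by group. Points are libraries, and line and bar are the mean and SD of 3. The ratio is near 0.224 in A4573-R and 0.232 in TC-71-R, below every parental library.

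SR protein genes were the class with the largest share of lower calls in A4573-R: 12 of 14 fell (all genes tested, 34.1%), SRSF4 rose and SRSF12 did not pass. Their median log2 fold change was -0.34. In TC-71-R the same 14 genes gave 4 higher (28.6%, all genes 38.8%), 6 lower (42.9%, all genes 39.6%) and 4 not passed, with a median of -0.08. The share of lower calls there was near that of all genes. SRSF6, which promotes inclusion of many alternative exons, had 188, 198 and 198 CPM in A4573 parental and 110, 110 and 118 in A4573-R. Its fall by 0.78 (SE 0.0403, adjusted p = 1.4e-10) on the log2 scale is the largest of the class. In TC-71 it fell from 277, 267 and 271 CPM to 223, 243 and 230, a log2 change of -0.23 (SE 0.0403). SRSF8, an intronless copy related to SRSF2, fell in both derivatives as well, from 27.4, 28.8 and 30.9 CPM to 16.8, 17.2 and 18 in A4573-R and from 29.3, 28.7 and 29 to 21.8, 19.9 and 22.4 in TC-71-R. For both genes, all libraries of the derivative lay below all libraries of its parent.

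SRSF7, a shuttling SR protein with a zinc knuckle, moved in opposite directions. It had 196, 190 and 189 CPM in A4573 parental and 152, 136 and 165 in A4573-R, but 117, 112 and 111 in TC-71 parental and 191, 210 and 189 in TC-71-R. Its log2 change was -0.35 (SE 0.0584) in A4573-R and 0.79 (SE 0.0584) in TC-71-R, and the difference between the lines, 1.14 (SE 0.0826), passed the test (adjusted p = 5.55e-09). The libraries of TC-71-R overlapped those of A4573 parental. SRSF2, SRSF3 and TRA2A also fell in A4573-R (log2 change -0.56, -0.27 and -0.40) and rose in TC-71-R (0.21, 0.23 and 0.11). SRSF2, which activates exons through exonic enhancers, had 169, 179 and 183 CPM in A4573 parental, 127, 105 and 129 in A4573-R, 123, 113 and 113 in TC-71 parental and 135, 134 and 136 in TC-71-R. SRSF1, the SR protein with the highest level, fell from 395, 407 and 420 CPM to 319, 279 and 301 in A4573-R, a log2 change of -0.44, while its change of -0.08 in TC-71-R did not pass (95% interval -0.19 to 0.04). SRSF4 showed the reverse of SRSF7 at a small size, with 0.18 in A4573-R and -0.11 in TC-71-R. Its call in TC-71-R (adjusted p = 0.0207) was lost with median-of-ratios scaling (0.0878), edgeR (0.091) and DESeq2 (0.096), and without TC-71 parental replicate 2 or 3 or TC-71-R replicate 1 or 3 (0.0507 to 0.0932). That of TRA2A in TC-71-R was lost without the scaling factor, TC-71 parental replicate 3 or TC-71-R replicate 1 (adjusted p = 0.292, 0.0513 and 0.0553). SRSF1, SRSF2 and SRSF9 share over 30% of their exon bases with another annotated gene. That gene lies on the same strand for SRSF1, where no strand setting could separate the reads, and on the opposite strand for SRSF2 and SRSF9. No strand setting of the counting is stated, so the levels of all 3 may include reads of the neighbour or miss reads that match both.

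The hnRNP genes were mostly not separated in A4573 and mostly higher in TC-71-R. Of 21 tested, 2 rose (9.52%, all genes 38.3%), 6 fell (28.6%, all genes 34.1%) and 13 did not pass in A4573-R (median -0.01). In TC-71-R 16 rose (76.2%, all genes 38.8%), 3 fell (14.3%, all genes 39.6%) and 2 did not pass (median 0.28). The 2 that rose in A4573-R were 1 with no filter on low values, with only the compared groups and without A4573 parental replicate 2 or A4573-R replicate 3. HNRNPA1 had 1217, 1254 and 1249 CPM in A4573 parental and 1235, 1191 and 1267 in A4573-R, which overlap, against 723, 720 and 741 in TC-71 parental and 1415, 1370 and 1358 in TC-71-R. Its rise of 0.92 (SE 0.0386, adjusted p = 6.48e-12) on the log2 scale was the largest of all members in either derivative. As a share of the hnRNP sum it was 15.1% (SD 0.149) in the A4573 parent and 15.8% (SD 0.0953) in its derivative, and 14.2% (SD 0.198) in the TC-71 parent and 20.3% (SD 0.415) in its derivative. Its 75 annotated pseudogenes held 0.939% to 1.26% of the combined CPM, but reads that match several copies may be missing from these counts. The part of the pseudogenes in the HNRNPA1 value was not tested. HNRNPA1L2, a retrogene copy of HNRNPA1, went the other way in TC-71, from 13, 13.4 and 12.4 CPM to 6.84, 6.46 and 5.94. Reads of such near-identical copies may be split uncertainly.

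HNRNPD (also known as AUF1, which binds AU-rich mRNA) rose from 200, 192 and 193 CPM to 362, 349 and 363 in TC-71-R, a log2 change of 0.87 (SE 0.0365, adjusted p = 6.45e-12). In A4573 it had 305, 312 and 314 CPM in the parent and 268, 271 and 291 in the derivative, a small fall of log2 -0.17. HNRNPA2B1, a close relative of HNRNPA1, rose from 516, 497 and 497 CPM to 712, 711 and 719 in TC-71-R, with overlapping values in A4573 (1136, 1181 and 1193 against 1161, 1180 and 1231). HNRNPH2, which binds runs of G, rose by 0.63 on the log2 scale in TC-71-R.

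HNRNPF, a G-run binding hnRNP that influences exon choice, had the largest fall in A4573-R of all members. It stood at 259, 269 and 272 CPM in A4573 parental and 146, 135 and 161 in A4573-R, a fall by 0.86 (SE 0.0493, adjusted p = 4.8e-10) on the log2 scale. In TC-71 it rose from 180, 181 and 181 CPM to 242, 230 and 239, a log2 change of 0.39 (SE 0.0493). The difference between the lines was 1.25 (SE 0.0697, adjusted p = 2.64e-10). HNRNPDL, a paralog of HNRNPD that lies near it on chromosome 4, fell from 243, 257 and 265 CPM to 154, 155 and 164 in A4573-R, by 0.69 on the log2 scale, and rose by 0.16 in TC-71-R. HNRNPM and HNRNPU followed the same directions (-0.39 and -0.21 in A4573-R, 0.24 and 0.33 in TC-71-R). HNRNPLL, known for its role in CD45 splicing in lymphocytes, was among the few that rose in both: from 57.0, 57.7 and 58.4 CPM to 86.9, 82.5 and 85.2 in A4573-R, and from 71.1, 72.8 and 71.7 to 105, 120 and 107 in TC-71-R. HNRNPL, its paralog, also passed as higher in both, but in A4573 its libraries overlapped (189, 172 and 190 CPM against 228, 180 and 239), and the call (adjusted p = 0.0169) was lost without A4573 parental replicate 2, A4573-R replicate 1 or A4573-R replicate 3 (adjusted p = 0.0832, 0.0752 and 0.0987), with no filter on low values (0.0671) and with only the compared groups in the fit (0.0882).

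**Figure D2:**
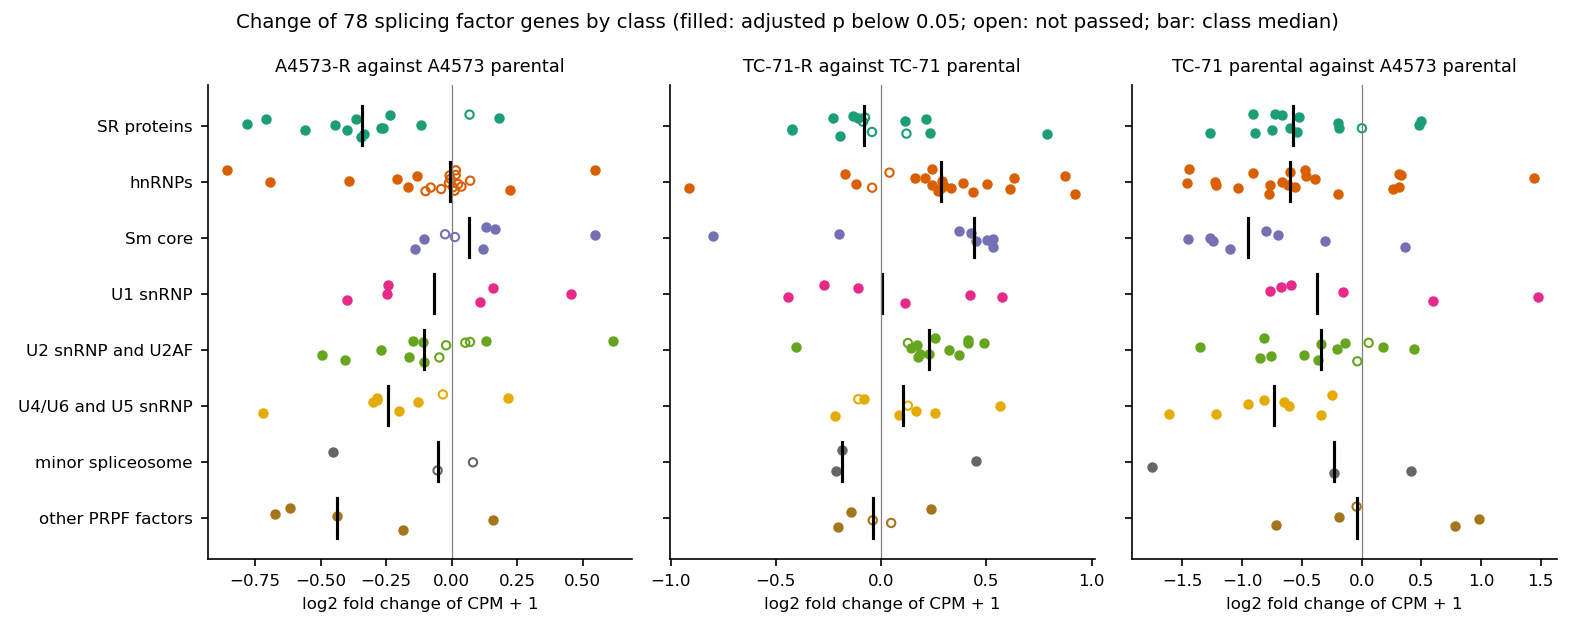
Log2 fold change of CPM + 1 for the 78 tested genes (points, in rows by class) in each derivative and between the parental lines. Filled points passed the test at an adjusted p of 0.05, open points did not, and the black bar is the class median; SR proteins lie mostly left of 0 in A4573-R and hnRNPs mostly right of 0 in TC-71-R.

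The Sm core genes rose in TC-71-R (6 of 8 higher, 2 lower, median 0.44) and were mixed in A4573-R (4 higher, 2 lower, 2 not passed, median 0.07). The 4 were 2 without A4573 parental replicate 1 or A4573-R replicate 3, and the 2 were 1 without A4573 parental replicate 2 or 3 or A4573-R replicate 1. With no filter on low values they were 2 and 1, and with quantile normalization 1 was lower. Among all genes 38.8% were higher and 39.6% lower in TC-71-R, and 38.3% and 34.1% in A4573-R. SNRPE, a subunit of the ring, had 64.3, 63.9 and 62.4 CPM in TC-71 parental and 90.7, 84.3 and 96.9 in TC-71-R. In A4573 it had 174, 176 and 178 CPM and then 183, 190 and 200, a log2 change of 0.12 (adjusted p = 0.0271). This call was lost with no filter on low values (adjusted p = 0.0697), with edgeR (0.0566) and without A4573 parental replicate 1 or 2 or A4573-R replicate 3 (0.0779, 0.0623 and 0.114). SNRPG, SNRPD2, SNRPD3, SNRPD1 and SNRPB rose in TC-71-R by 0.53, 0.53, 0.45, 0.43 and 0.37 on the log2 scale. The other 2 fell, SNRPF by 0.20 and SNRPN by 0.80.

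SNRPN, which encodes the SmN protein that can take the place of SmB in the ring and is expressed mainly in neural tissue from an imprinted locus, had the largest difference between the lines of any member. It rose from 49.1, 49.0 and 49.6 CPM to 77.5, 69.1 and 70.6 in A4573-R (log2 0.55, SE 0.0426), and fell from 61.7, 62.6 and 66.7 CPM to 35.4, 36.4 and 36.6 in TC-71-R (log2 -0.80, SE 0.0426). The difference was -1.34 (SE 0.0603, adjusted p = 2.11e-11). Against SNRPB, which encodes SmB, SNRPN made up 18.6% (SD 0.171) of the pair in A4573 parental and 23.5% (SD 1.53) in A4573-R, but 32.5% (SD 0.364) in the TC-71 parent and 17.5% (SD 0.576) in its derivative. SNRPN shares 33.6% of its exon bases with SNURF on the same strand, so reads of these genes may not be told apart, and this share is not corrected for length.

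Genes of U1 were split in each derivative, 3 higher and 3 lower in both. Among all genes 38.3% were higher and 34.1% lower in A4573-R, and 38.8% and 39.6% in TC-71-R. SNRPA and SNRPC, which encode the U1-specific proteins A and C, rose in both derivatives, SNRPA by 0.16 in A4573-R and 0.57 in TC-71-R and SNRPC by 0.11 and 0.115. The call of SNRPC in A4573-R (adjusted p = 0.0295) was lost with no filter on low values (0.0622), with edgeR (0.0629), with only the compared groups (0.0553) and without A4573 parental replicate 1 or 3 or A4573-R replicate 3 (0.0922, 0.0619 and 0.155). Its call in TC-71-R (adjusted p = 0.02) was lost without the scaling factor (0.291), TC-71 parental replicate 1 (0.109) or TC-71-R replicate 1 (0.0673). SNRNP70, the U1-70K protein that contacts SR proteins, fell from 207, 211 and 209 CPM to 172, 172 and 184 in A4573-R and rose from 132, 129 and 130 to 170, 186 and 170 in TC-71-R. PRPF40B, related to a yeast U1 protein, showed the reverse, with 4.62, 4.63 and 4.53 CPM in A4573 parental, 6.54, 7 and 6.51 in A4573-R, 14.8, 14.3 and 14.5 in TC-71 parental and 9.83, 11.3 and 10.2 in TC-71-R. Its levels were lowest in A4573 parental and highest in TC-71 parental, with the derivatives between them. PRPF40B overlaps FMNL3 on the opposite strand over 48.7% of its exon bases. PRPF39 fell in both derivatives (-0.40 in A4573-R and -0.27 in TC-71-R).

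U2 and U2AF genes were higher in TC-71-R in 11 of 13 cases (all genes tested, 38.8%), with 1 lower (all genes, 39.6%) and a median of 0.23. In A4573-R 2 rose (all genes, 38.3%), 7 fell (all genes, 34.1%) and 4 did not pass (median -0.10). With quantile normalization 4 rose in A4573-R. U2AF1, whose values are uncertain, is among the 11 and among the 7. With a filter of a mean of at least 5 CPM, 6 fell in A4573-R. SF3B5, a small subunit of the SF3B complex that holds the branch site, rose in both, from 40.1, 40.7 and 41.9 CPM to 61.5, 60.9 and 67.4 in A4573-R and from 53.2, 55.9 and 58.3 to 73.1, 73.3 and 77.3 in TC-71-R. Its log2 change of 0.62 (SE 0.0441) was the largest rise of any member in A4573-R. SF3B6, which contacts the branch site region, rose by 0.13 in A4573-R and 0.49 in TC-71-R. SF3B1, the largest subunit and a gene mutated in several blood cancers, had 362, 367 and 369 CPM in A4573 parental, 336, 317 and 329 in A4573-R, 394, 379 and 371 in TC-71 parental and 430, 489 and 424 in TC-71-R, a small fall (-0.16) and a small rise (0.23). SNRPB2, the U2 B'' protein, fell from 63.9, 68.9 and 68.6 CPM to 54.4, 55.5 and 56.4 in A4573-R and rose from 25.3, 26.6 and 24.9 to 34.5, 33.0 and 35.8 in TC-71-R. SNRPA1, the U2 A' protein that pairs with it, fell in both (-0.15 and -0.41).

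Among U4/U6 and U5 genes, 6 of 8 fell (all genes tested, 34.1%) and 1 rose (all genes, 38.3%) in A4573-R (median -0.24). In TC-71-R 4 rose (50%, all genes 38.8%) and 2 fell (25%, all genes 39.6%), with a median of 0.11. Without the scaling factor 2 rose in TC-71-R. Only 1 fell there with no filter on low values, with median-of-ratios scaling, with edgeR and with DESeq2, and when any A4573 parental library, TC-71 parental replicate 2 or TC-71-R replicate 1 was left out. PRPF8, the scaffold of the catalytic core, had 599, 590 and 591 CPM in A4573 parental and 409, 313 and 364 in A4573-R, a fall by 0.72 (SE 0.0666, adjusted p = 1.14e-07) on the log2 scale. In TC-71 it had 199, 188 and 194 CPM and then 208, 209 and 218, a log2 change of 0.13 that did not pass (95% interval -0.02 to 0.27), although the groups did not overlap. It passed as higher with median-of-ratios scaling (adjusted p = 0.0294), edgeR (0.0242), DESeq2 (0.0161) and only the compared groups (0.00651), and without A4573-R replicate 1 or 2 (0.0231 and 0.01). PRPF31, needed to join U4/U6 to U5, fell from 37.8, 38.6 and 36.4 CPM to 30.5, 28.8 and 32.9 in A4573-R and rose from 18.8, 19.3 and 18.9 to 28.7, 28.6 and 28.3 in TC-71-R. PRPF4 had the same directions (-0.29 and 0.26), PRPF3 fell in both (-0.30 and -0.22) and SNRNP27 rose in both (0.21 and 0.17). PRPF31 overlaps an annotated gene on the opposite strand over 32.0% of its exon bases.

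Of the other PRPF factors, 4 of 5 fell in A4573-R (all genes tested, 34.1%), and their median of -0.44 was below that of the SR proteins. PRPF38B and PRPF4B, a factor and a kinase that act when the spliceosome is activated, fell by 0.67 and 0.62 on the log2 scale there and by 0.21 and 0.14 in TC-71-R. PRPF19 fell from 254, 260 and 260 CPM to 187, 185 and 199 in A4573-R, a log2 change of -0.44, and its change of 0.05 in TC-71-R did not pass. Of the 3 minor spliceosome genes, SNRNP48 fell in both derivatives (-0.45 and -0.19) and SNRNP35 fell in TC-71-R (-0.22). SNRNP25 rose in TC-71-R (0.45), with a change of -0.05 in A4573-R that did not pass. SNRNP35 overlaps RILPL1 on the opposite strand over 40.1% of its exon bases.

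**Figure D3:**
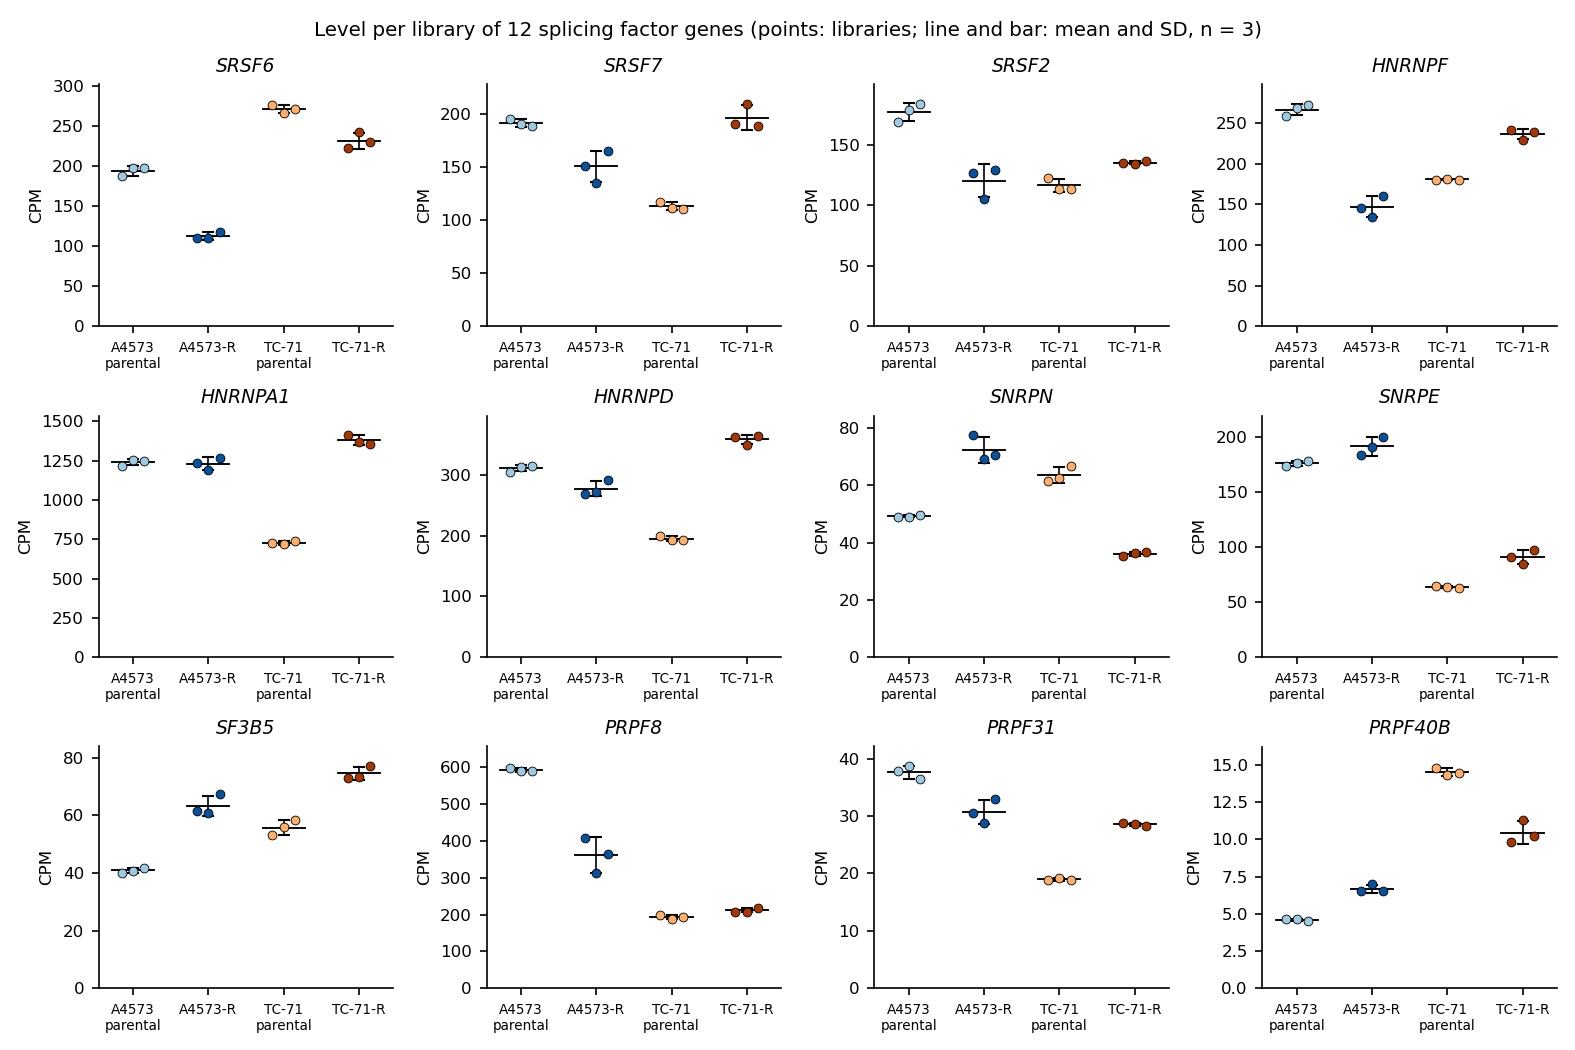
CPM in each library for 12 of the genes described, by group. Points are libraries, and line and bar are the mean and SD of 3; SRSF7, HNRNPF, SRSF2 and PRPF31 are lower in A4573-R than in A4573 parental and higher in TC-71-R than in TC-71 parental, and SNRPN and PRPF40B the reverse.

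Tested directly, the change differed between the lines for most members. The change in TC-71-R minus the change in A4573-R was above 0 for 52 of the 78 (all genes tested, 37.9%) and below 0 for 12 (all genes, 40.2%), with 14 not passed and a median of 0.34 against -0.01 over all genes. With other scalings, filters and models this member median was 0.24 to 0.40. In each of the 8 classes more members were above 0 than below it, among them 14 of 21 hnRNPs, 10 of 13 U2 and U2AF genes, 9 of 14 SR proteins and 6 of 8 Sm core genes. The 10 largest differences were those of SNRPN (-1.34), HNRNPF (1.25), SRSF7 (1.14), HNRNPD (1.04), HNRNPA1 (0.93), HNRNPA1L2 (-0.92), PRPF40B (-0.90), HNRNPDL, PRPF31 and PRPF8 (0.85 each).

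Put side by side, 22 of the 78 members (28.2%) fell in A4573-R and rose in TC-71-R, which among all genes was the case for 11.9%. These 22 were 53.7% of the members that fell in A4573-R and 47.8% of those that rose in TC-71-R. They include U2AF1, whose values are uncertain. In the reverse direction there were 3 members (3.8%), SNRPN, SRSF4 (whose call in TC-71-R depended on the setting) and PRPF40B, against 14.3% of all genes. A further 13 members (16.7%, all genes 14.8%) fell in both and 10 (12.8%, all genes 16.4%) rose in both. HNRNPH1, HNRNPUL2, SRSF12 and SNRNP40 passed in neither derivative by limma. Of the 13 that fell in both, 5 were SR proteins (SRSF5, SRSF6, SRSF8, SRSF9 and SRSF10), while no hnRNP gene passed as lower in both. Across the 78 members the change in A4573-R and the change in TC-71-R, which share no libraries, had a Pearson r of 0.088 and a Spearman rho of 0.18. This is across genes, which are not independent replicates.

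**Figure D4:**
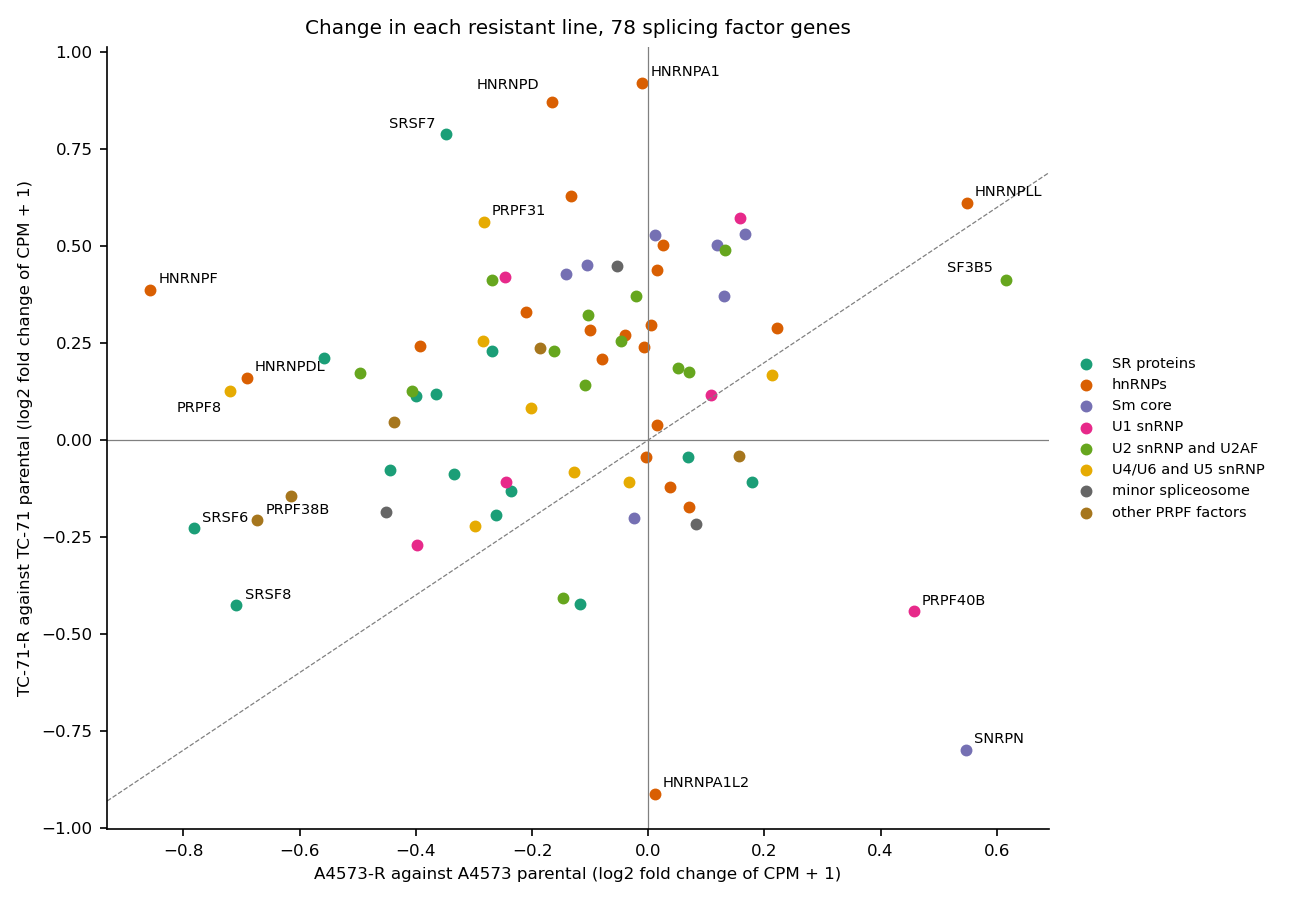
Log2 fold change of CPM + 1 in TC-71-R (vertical axis) against that in A4573-R (horizontal axis) for the 78 tested genes, coloured by class; the dashed line marks equal change. The upper left area, lower in A4573-R and higher in TC-71-R, holds 34 points and the lower right 9, whether or not they passed the test.

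Most members stood lower in TC-71 parental than in A4573 parental. TC-71 parental had higher levels than A4573 parental for 15 of 78 members (all genes tested, 45.9%) and lower levels for 59 (all genes, 44.1%), with 4 not passed. The median log2 difference was -0.58, against 0.02 over all genes, and libraries did not overlap for 75 of the 78 members (all genes, 92.5%). With quantile normalization the member median was -0.36. All 8 U4/U6 and U5 genes were lower in TC-71 parental (median -0.73), of which 7 passed with quantile normalization. The Sm core had 7 of 8 lower (median -0.95), the hnRNPs 16 of 21 (median -0.60) and the SR proteins 11 of 14 (median -0.57). SNRNP25 had the lowest value, with 50.6, 52.2 and 51.3 CPM in A4573 parental against 14, 14.5 and 15 in TC-71 parental (log2 -1.76, SE 0.0665, adjusted p = 4.82e-13). PRPF8 followed at -1.61, HNRNPH2 at -1.46, SNRPE at -1.45 and HNRNPM at -1.44. Higher in TC-71 parental were PRPF40B (1.47), HNRNPA1L2 (1.44), PRPF38B (0.98), PRPF39 (0.60), SRSF5 (0.49) and SRSF6 (0.48). Taking the means of the 4 groups, A4573 parental was the highest for 37 members and TC-71 parental the lowest for 44. The comparison of the parents shares libraries with each derivative's comparison, so its values stand beside them as levels only.

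Other splicing genes came from a list of 109 written by role. Of 100 tested, 27 were higher (all genes, 38.3%) and 49 lower (all genes, 34.1%) in A4573-R, with a median of -0.11 close to that of the members. In TC-71-R 41 were higher (all genes, 38.8%) and 33 lower (all genes, 39.6%), shares near those of all genes, with a median of 0.03. ESRP1, an epithelial splicing regulator, had the largest change: its mean went from 13.3 CPM (SD 0.614, n = 3) in the TC-71 parent to 1.53 (SD 0.231) in its derivative, a log2 change of -2.50 (SE 0.110, adjusted p = 1.15e-11), against 2.68 (SD 0.155) in A4573 parental and 4.52 (SD 1.19) in A4573-R (0.57). RBMX, an hnRNP-like protein, fell by 0.17 in A4573-R and rose by 0.78 in TC-71-R on the log2 scale. RALY, also hnRNP-like, rose by 0.37 and changed by -0.72. SRRM3, a neural activator of short exons, rose in both (0.97 and 0.81), while its relative SRRM4 fell in A4573-R (-0.77) and was close to 0 CPM in TC-71. Of the 7 kinases of SR proteins, 4 fell and none rose in A4573-R by limma, and in TC-71-R 4 rose and 2 fell, among them CLK4 (-0.34 and 0.50) and CLK3, whose change in TC-71-R was -1. Of 12 genes of snRNP assembly, 3 rose and 5 fell in A4573-R and 7 rose and 2 fell in TC-71-R, among them GEMIN4 (-0.64 and 0.44) and GEMIN6 (-0.03, not passed, and 0.86).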

How the data were processed

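For each library the authors deposited a normalized signal per gene, reads per 1000000 of a library size multiplied by a factor of 0.894 to 1.06. Per the submitters' processing notes, Trimmomatic, STAR 2.4, HTSeq and edgeR were used with GRCh38. The annotation release, the strand setting and poly(A) selection are not given in the sources used here. Each value divided by the smallest step of its library gave a whole number within 0.001 (100% of values), so reads could be recovered. Unnamed entries, 30.6% to 42.0% of reads, were left out, and entries that share a symbol were summed.

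The members, classes and gene lists were chosen with earlier results of these data known. Symbols ending in P and a number were dropped as pseudogenes, except the SNRNP genes. The 14335 genes that reached 1 CPM or more in 3 or more libraries were tested with limma 3.58.1 in R 4.3.3, with a trend on mean expression, on log2(CPM + 1), where low levels pull fold changes towards 0. A mean was fitted for each of the 4 groups, with Benjamini-Hochberg adjustment over all tested genes and a threshold of 0.05. The model was tested on simulated data, and the outcome is not reported here. Alternatives were another pseudocount (0.25), other filters, other scalings, edgeR 4.0.16 (quasi-likelihood) and DESeq2 1.42.0 on recovered reads, only the groups compared, a replicate block and each library left out. No exact test was run, since with 3 libraries a group its p cannot fall below 0.1. Named genes were, by rule, the 2 highest and 2 lowest passing changes of each class and comparison, members with opposite calls in the derivatives, the 10 largest differences between the lines, the highest level of each class, and 3 per direction among other splicing genes. Other members named in the text were chosen after their values were seen, and some genes that enter the counts are not reported here by name. Intervals are 95% intervals from limma. Positions are from GENCODE release 29 on GRCh38, where each member matches 1 gene.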

Additional observations from a re-analysis of the deposited data

Results flagged for a closer look

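The change in the derivative differed between A4573 and TC-71 by the test of the difference itself (limma, Benjamini-Hochberg over all tested genes). Of the 78 tested members, 52 had a change that was higher in TC-71 (all genes tested, 37.9%) and 12 a change that was lower (all genes, 40.2%). The values here are the TC-71 change minus the A4573 change on the log2 scale. Among members they were -1.34 for SNRPN, 1.25 for HNRNPF, 1.14 for SRSF7, 1.04 for HNRNPD, 0.93 for HNRNPA1, -0.92 for HNRNPA1L2, -0.9 for PRPF40B and 0.85 for each of HNRNPDL, PRPF31 and PRPF8. Among other splicing genes they were -3.06 for ESRP1, 1.19 for MBNL3, 1.08 for GEMIN4, -1.08 for RALY and -0.89 for CLK3. Groups of 3 libraries are too small for a test of single outlying libraries.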

How the results depend on the processing

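Each count of higher and lower members over all 78 kept within 1.5 times its value under all alternatives, except the 14 members higher in A4573-R, which were 9 with no filter on low values and 9 to 15 when leaving out each library in turn (9 without A4573-R replicate 3, 15 without A4573-R replicate 1). Counts within classes that moved further stand beside them, except those of other PRPF factors and the minor spliceosome. Of the former, the 1 higher in A4573-R was 0 with no filter, quantile normalization, edgeR, DESeq2 or only the compared groups and without A4573 parental replicate 1 or A4573-R replicate 2 or 3, and the 1 higher in TC-71-R was 2 with DESeq2. Of the latter, 1 was higher in A4573-R without A4573-R replicate 1. Across all 78 members and all alternatives, 1 passed call turned direction, that of a U1 gene between the parents with quantile normalization. Among the values of genes named by the rule, signs turned only where the value had not passed. The change of PRPF19 in TC-71-R was -0.0239 without the scaling factor and -0.0129 with quantile normalization. The difference between the lines of SNRNP200 was -0.0251 and -0.0097 under the same settings, and that of SNRPC -0.0113 with TMM, -0.0621 without the scaling factor and -0.0125 with quantile normalization. Leaving out each library gave -0.0258 to 0.0531 for SNRPC, and in A4573-R -0.0312 to 0.0134 for HNRNPA1 and -0.1323 to 0.0083 for SNRNP25. Each combination of a named value and an alternative was also counted, including fits without a library outside the comparison, which keep the estimate. Besides the combinations that turned sign, 4116 kept direction and call, 100 lost the call and 4 gained it. The cause was not tested. With a replicate block, 14 members were higher and 41 lower in A4573-R, 47 and 21 in TC-71-R, 15 and 59 between the parents, and 52 and 12 for the difference. Libraries with the same number did not visibly deviate together (correlations -0.097 to 0.026). With 3 libraries a group, this cannot decide whether the numbers mark shared batches. Depth limits U2AF1 most among the tested members, with 47 reads in the library that has the fewest.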
